A study of Mus musculus with 18 samples.

Results

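The transcripts of 10 ligands of the tumor necrosis factor (TNF) superfamily were followed across bone marrow-derived macrophages (BMDMs) that had been stimulated with LPS, made tolerant to it, or treated with carboplatin. The ligand genes were chosen by name, as a list of 10 symbols, and all 10 were found among the 22852 gene symbols of the count tables. RNA-Seq was done on 18 BMDM samples, which form 6 groups of 3 biological replicates. The BMDMs were grown for 7 days from bone marrow of female C57BL/6 mice, in medium conditioned by L929 cells. Unstimulated BMDMs received no LPS, LPS-primed BMDMs received Salmonella LPS for 24 h at 100 ng/ml, and in LPS-tolerant BMDMs this priming was followed, after a change of medium, by LPS at 10 ng/ml for 3 h. The singly stimulated BMDMs received only LPS at 10 ng/ml. The labels give no time for this dose, which is taken as 3 h from a drawn scheme of the matching cytokine assay. In 2 further groups, 25 µM carboplatin was added 1 h before priming, and the BMDMs were then primed, or primed and stimulated again. This order is that of the methods, while the labels' protocol names LPS before carboplatin.

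TNF superfamily ligands are mostly trimeric membrane proteins, some of which are released by proteases, and they signal through receptors of the TNF receptor superfamily. LPS, a cell wall component of Gram-negative bacteria, binds Toll-like receptor 4 on macrophages and activates NF-κB, and Tnf is a classical rapid target of this pathway. In endotoxin tolerance, macrophages that have met LPS make less TNF when they meet it again. Carboplatin is a platinum drug that crosslinks DNA.

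The total gene count ranged from 6869667 to 14708099 read pairs (median 8986463). The macrophage markers Adgre1, Csf1r, Cd68, Fcgr1, Mertk, Lyz2 and Cd14 had counts in all 18 samples, while Cd3e, Cd3d and Cd3g of T cells were at 0 in all 18 samples. The B-cell marker Ighm had 255.2 to 1542.4 normalized counts in unstimulated BMDMs, 69.2 to 271.1 in singly stimulated BMDMs and at most 9.2 in any other sample. Normalized counts are counts scaled to a common library size. Groups were compared with edgeR's quasi-likelihood test in a fit of all 18 samples, over 11305 genes that passed the filter on low counts. This fit left out the replicate number, which entered as a block in an alternative fit. A gene was called at a Benjamini-Hochberg adjusted p under 0.05, or under 0.25 in the comparisons of carboplatin with its control. Adjusted p values below come from the fit without the block unless another fit is named, and its log2FC values are mostly followed by their SE. Of the 10 ligand genes, 7 passed the filter. Tnfsf4 passed it through the singly stimulated group, where it was high. Tnfsf10 passed it only with singly stimulated samples counted beside unstimulated ones. Lta, Ltb and Tnfsf15 did not pass, and they are described by their counts.

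The ligand mRNA pool was small in unstimulated BMDMs and was dominated by Tnf and Tnfsf9 after every LPS treatment. Levels are compared between genes here in TPM, which divide counts by exon length and scale each sample to the same total. Summed over the 10 genes, the level was 103 ± 29.7 TPM (SD, n = 3) in unstimulated BMDMs, 227 ± 10.1 in LPS-primed BMDMs, 739 ± 42.5 in LPS-tolerant BMDMs and 5145 ± 3216 after the single dose, where the samples ran from 3064 to 8849 and the mean without replicate 1 was 3293. With carboplatin the sum was 286 ± 12.5 in LPS-primed BMDMs (274 to 299, against 217 to 237 without it) and 922 ± 18.9 in LPS-tolerant BMDMs (901 to 938, against 693 to 777). In TPM the samples with carboplatin lay above those without it in both settings, and these sums were not tested. In LPS-tolerant BMDMs the separation depends on the scaling. There Tnf, the largest part of the sum, overlapped in normalized counts (2494 to 2961 with carboplatin, 2038 to 2555 without it). Tnfsf12, which encodes TWEAK, a ligand of injury and repair responses, made up the largest share in unstimulated BMDMs, 37.3 ± 8.23% of the summed TPM, ahead of Tnf at 29.7 ± 2.04% and Tnfsf9 at 19.9 ± 7.60%, and the samples of Tnfsf12 and Tnf overlapped. In LPS-primed BMDMs, Tnfsf9 held 49.6 ± 7.49% and Tnf held 37.9 ± 6.39%. After the single dose, Tnf held 53.5 ± 9.92% and Tnfsf9 held 45.0 ± 10.2%. In LPS-tolerant BMDMs the shares parted, with 81.0 ± 1.12% for Tnf and 16.4 ± 0.711% for Tnfsf9, and they were 80.8 ± 1.81% and 16.4 ± 1.35% in the presence of carboplatin.

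**Figure D1:**
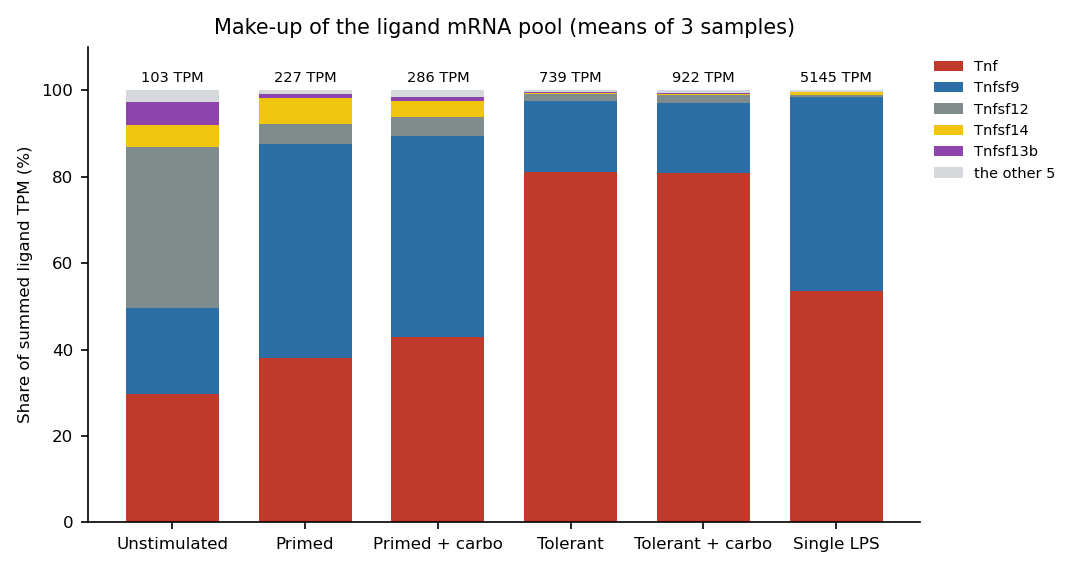
Mean share (%) of each ligand gene in the summed TPM of the 10 genes in each of the 6 groups (n = 3 samples each), with the mean summed TPM above each bar. Tnfsf12 leads in unstimulated BMDMs with 37.3%, Tnf and Tnfsf9 share the pool after the single dose, and Tnf makes up 81.0% in LPS-tolerant BMDMs.

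The response to the first LPS dose was asked of singly stimulated and unstimulated BMDMs. Tnf, Tnfsf9 and Tnfsf14 rose. Tnfsf4 was also called, but it had passed the filter only through the singly stimulated group, so its call is no support for a count of ligands. None of the 7 tested ligands fell by edgeR's test, with 4 of 7 at an unadjusted p under 0.05 (Tnfsf4 among them), while limma-voom called 2 lower and DESeq2 called 0 lower. Of all tested genes, 24.3% rose and 26.9% fell in this comparison, so that 47.5% of the called genes were higher (28.5% by library size alone). In bulk samples such as these, fewer cells of a type and less RNA per cell cannot be told apart. After 24 h of priming, Tnf, Tnfsf9 and Tnfsf14 were above their unstimulated levels, among 12.1% of tested genes that rose and 13.1% that fell, and no tested ligand was called lower by edgeR, with 4 of 7 at an unadjusted p under 0.05. Among called genes 48.1% were higher (26.4% by library size alone). With DESeq2 or limma-voom, 1 ligand, Tnfsf12, was called lower after priming. The stromal marker list (Col1a1, Col1a2, Dcn, Pdgfrb and Lum) summed to 0.820 to 6.36 normalized counts in unstimulated and 40.2 to 76.9 in LPS-primed BMDMs. Dcn made up most of the latter (27.5, 53.5 and 55.3), and Col1a1, Col1a2 and Lum had counts there in replicate 3 only. The megakaryocyte list (Itga2b, Gp9 and Ppbp) summed to 0.820 to 3.82 and 34.7 to 218, with Gp9 at 0 in all samples. After priming this sum was mostly Ppbp (213.8, 71.8 and 29.1), with Itga2b at 3.4 to 5.6. Ighm had 255.2, 942.5 and 1542.4 normalized counts in unstimulated BMDMs, 2.1, 0.0 and 0.9 after priming and 69.2, 211.0 and 271.1 after the single dose. After the single dose the stromal list summed to 20.3 to 49.3, the megakaryocyte list to 4.84 to 11.8 and the T-cell list to 33.2 to 48.9. The T-cell list summed to 15.3 to 19.1 in unstimulated BMDMs, and its genes Cd3e, Cd3d and Cd3g were at 0 in both groups. The part of these markers in the ligand values was not tested.

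LPS tolerance was read from the comparison of LPS-tolerant with singly stimulated BMDMs, which had received the same last dose. The ligands that rose after the first dose, Tnf, Tnfsf9 and Tnfsf14, were lower in LPS-tolerant BMDMs, Tnfsf4 was called lower with the same limit of the filter, and none of the 7 was called higher by edgeR, DESeq2 or limma-voom (4 of 7 at an unadjusted p under 0.05). Of all tested genes, 16.2% were higher and 18.3% were lower in LPS-tolerant BMDMs. The rise from LPS-primed to LPS-tolerant BMDMs, taken here as the response to the second dose, was called for Tnf, while Tnfsf14 fell, in a comparison in which 3.6% of all tested genes rose and 2.71% fell (57.1% of called genes higher, 38.3% by library size alone). LPS-tolerant BMDMs also had a change of medium and 3 h more in culture. No primed group had these without LPS, so their part and that of the dose cannot be told apart. The second response minus the first, tested as a contrast of the 4 groups, was lower for Tnf, Tnfsf9 and Tnfsf14, with Tnfsf4 called under that limit, and 10.5% of tested genes were called higher and 13.3% lower in it (44.2% of called genes higher, 63.3% by library size alone). These comparisons share samples, so the lists are not independent of each other. The B-cell marker Ighm had 69.2 to 271.1 normalized counts in singly stimulated and 3.8 to 5.1 in LPS-tolerant BMDMs, with Cd79a and Pax5 at 0 in both groups. The T-cell list summed to 33.2 to 48.9 and 4.32 to 8.24, with Cd3e, Cd3d and Cd3g at 0, the stromal list to 20.3 to 49.3 and 50.6 to 86.5, and the megakaryocyte list to 4.84 to 11.8 and 103 to 166. In LPS-tolerant BMDMs the stromal sum was mostly Dcn (45.6, 46.6 and 66.9) and the megakaryocyte sum mostly Ppbp (162.1, 101.9 and 101.9). The part of these markers in the ligand values was not tested.

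**Figure D2:**
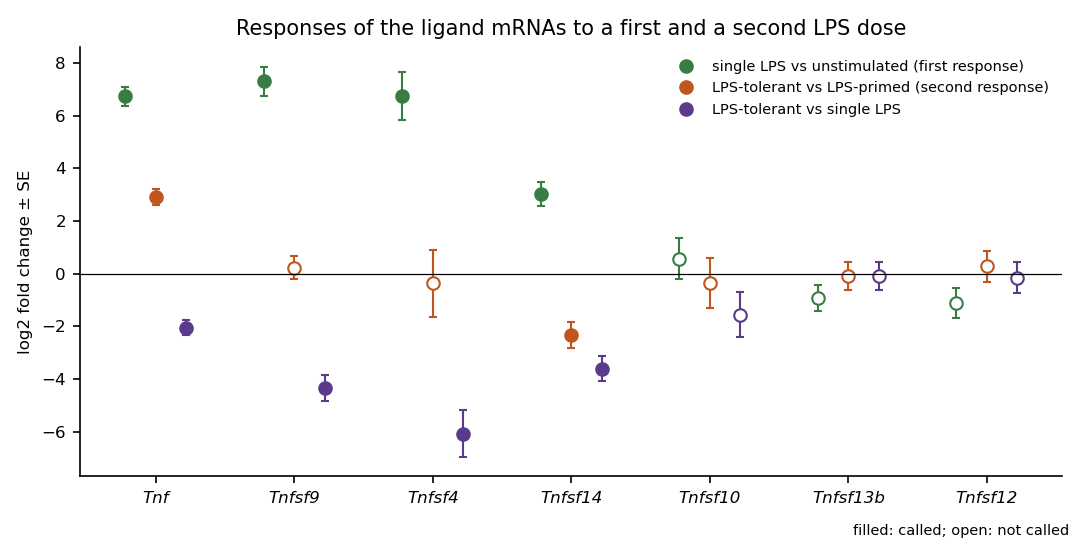
Log2FC ± SE of the 7 tested ligand mRNAs after the first dose (single LPS vs unstimulated), after the second dose (LPS-tolerant vs LPS-primed) and between LPS-tolerant and singly stimulated BMDMs, with 3 samples a group, filled points for called genes and open points for others. Tnf has a positive second response (2.92), Tnfsf9 one close to 0 (0.22) and Tnfsf14 a negative one (-2.33).

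**Figure D3:**
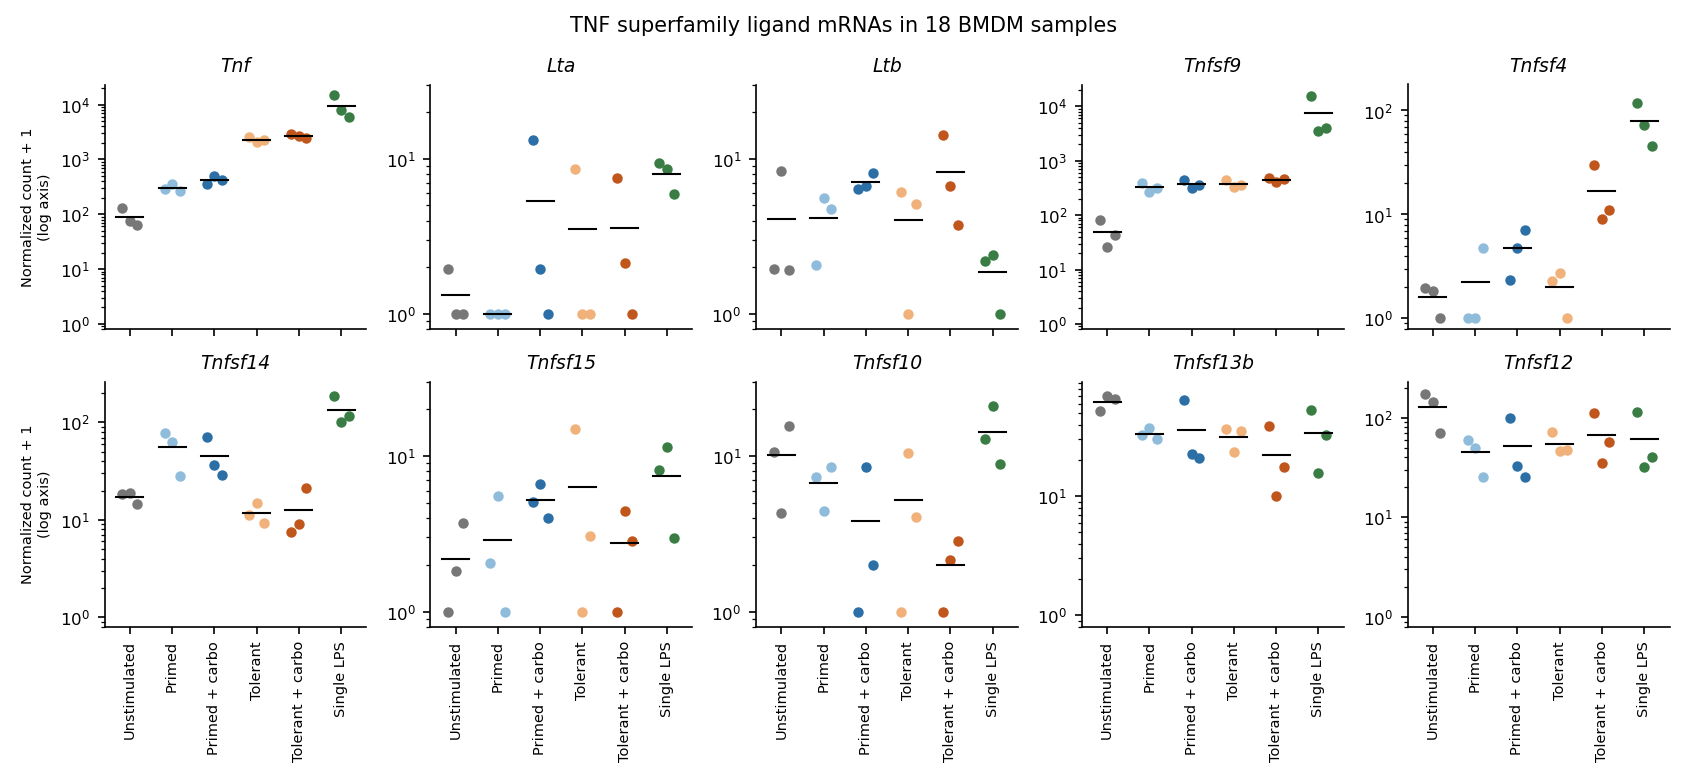
Normalized count plus 1 (log axis) of each ligand mRNA in each of the 18 samples by group, with replicates 1 to 3 from left to right and a bar at the group mean (carbo is carboplatin, single LPS the dose of 10 ng/ml alone). Tnf and Tnfsf9 are highest after the single dose in all 3 samples, and Lta, Ltb and Tnfsf15 stay at low counts in every group (at most 15 read pairs per sample).

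Tnf encodes TNF, a secreted and membrane-bound cytokine that drives inflammation through the receptors encoded by Tnfrsf1a and Tnfrsf1b. The gene lies on the minus strand at chr17:35418357-35420983 (GRCm39), between Lta and Ltb, 1157 bases from the former and 3060 from the latter. Tnf had 131, 75.4 and 61.8 normalized counts in unstimulated BMDMs, 285, 353 and 267 in LPS-primed BMDMs and 14714, 7858 and 5988 after the single dose. LPS-tolerant BMDMs held 2555, 2038 and 2258. These 4 groups did not overlap, and the highest single-dose sample was replicate 1. Tnf rose 107-fold after the first dose (log2FC 6.74 ± 0.36, adjusted p = 2.96e-10) and was 3.38-fold higher after priming (log2FC 1.76 ± 0.30, adjusted p = 0.000345). In LPS-tolerant BMDMs it reached 23.99% of the single-dose mean and was 4.17-fold lower (log2FC -2.06 ± 0.29, adjusted p = 3.38e-05). Tnf was still 7.57-fold higher in LPS-tolerant than in LPS-primed BMDMs (log2FC 2.92 ± 0.30, adjusted p = 4.18e-05), and the second response was smaller than the first by 3.82 on the log2 scale (log2FC -3.82 ± 0.42, adjusted p = 3.86e-06). All of these differences had the same direction in 3 of 3 replicates.

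The 3′ untranslated region of Tnf carries a cluster of AUUUA motifs, a class of AU-rich element through which proteins such as tristetraprolin shorten the life of an mRNA. It holds 8 ATTTA motifs in 764 bases, against a median of 2 over 10851 tested genes with an annotated 3′ untranslated region, and 5 copies of the nonamer TTATTTATT (overlaps counted). Only 0.323% of these genes (35) hold 4 or more nonamers. The densest stretches of 30 bases of Tnf (chr17:35418655-35418684, minus strand), of its neighbour Lta (chr17:35422380-35422409, minus strand) and of Tnfsf13b (chr8:10087063-10087092, plus strand), the ligand genes that hold a nonamer, are shown for comparison, from the GRCm39 genome with each ATTTA in capitals.
Tnf: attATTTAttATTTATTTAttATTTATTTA
Lta: tatggagagaaaagttaagttATTTATTTA
Tnfsf13b: ctgttcatttcattggcccATTTATTTAtt
Tnfsf9 and Tnfsf4 each hold 2 ATTTA motifs, Tnfsf14 holds 1, and none of these 3 holds a nonamer. The count of ATTTA alone does not set Tnf apart, since longer regions hold 11 (Tnfsf15, 4986 bases), 8 (Tnfsf10, 3998 bases) and 6 (Tnfsf13b, 3631 bases). These counts describe the letters and were not tested against the response to LPS.

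Tnfsf9 encodes the ligand of the T-cell costimulatory receptor 4-1BB, whose gene is Tnfrsf9, and lies at chr17:57412298-57414769 on the plus strand, 81681 bases from Tnfsf14. Tnfsf9 had 79.3, 24.6 and 41.8 normalized counts in unstimulated BMDMs, 382, 262 and 321 in LPS-primed BMDMs and 15270, 3549 and 3999 after the single dose. LPS-tolerant BMDMs held 447, 323 and 358, overlapping the LPS-primed samples and below every singly stimulated one. Replicate 1 of the single dose stood far above the other two. Tnfsf9 rose 157-fold after the first dose (log2FC 7.30 ± 0.57, adjusted p = 2.34e-08), and without that replicate the log2FC was 6.29. It was 6.67-fold higher after priming (log2FC 2.74 ± 0.49, adjusted p = 0.000464). In LPS-tolerant BMDMs it was 20.2-fold lower than after the single dose (log2FC -4.34 ± 0.49, adjusted p = 3.46e-06), or -3.33 without that replicate, and its mean was 4.95% of the single-dose mean. For Tnfsf9 no change was called between LPS-tolerant and LPS-primed BMDMs (log2FC 0.22 ± 0.44, 95% interval -0.63 to 1.08, adjusted p = 0.835). The second response minus the first was -7.08 ± 0.68 (adjusted p = 1.01e-06), and -6.07 without that replicate.

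Tnfsf4 encodes OX40 ligand, which costimulates T cells through OX40 (Tnfrsf4). Its counts were 1, 1 and 0 in unstimulated BMDMs, 0, 0 and 4 in LPS-primed BMDMs, 1, 2 and 0 in LPS-tolerant BMDMs and 97, 104 and 45 after the single dose. The transcript was thus close to absent in all samples of the first 3 groups and present in every singly stimulated one. The ratio of singly stimulated to unstimulated BMDMs was 126, with an exact 95% interval of 34.4 to 1043 for counting error alone, and the fitted log2FC was 6.75 ± 0.92. The ratio of LPS-tolerant to singly stimulated BMDMs was 0.014 (0.003 to 0.041). Because the gene passed the filter through the singly stimulated group, its tests against that group in the filtered fit carry no support. In the fit with no filter, edgeR's adjusted p was 2.13e-06 for the former comparison and 9.69e-06 for the latter. After the second dose, 3 counts stood against 4 in LPS-primed BMDMs. The contrast of the second with the first response was -7.12 ± 1.84 (adjusted p = 0.00636 with no filter), but all 4 counts of the LPS-primed group came from replicate 3, and without it the contrast was -3.55 (adjusted p = 0.941). Leaving out replicate 2 of the LPS-tolerant group moved it to -7.83 (adjusted p = 0.0121), and the difference from the single dose from -6.07 to -6.79.

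Tnfsf14 encodes LIGHT, which binds the receptors encoded by Tnfrsf14 and Ltbr, and lies at chr17:57496451-57501177 on the minus strand. Tnfsf14 had 17.2, 18.03 and 13.6 normalized counts in unstimulated BMDMs, 77.3, 61.5 and 27.2 in LPS-primed BMDMs and 184, 101.0 and 115 after the single dose. LPS-tolerant BMDMs held 10.1, 13.8 and 8.24, below every LPS-primed and singly stimulated sample and overlapping the unstimulated ones by 1 sample. Tnfsf14 rose 8.10-fold after the first dose (log2FC 3.02 ± 0.46, adjusted p = 4.46e-05). It was higher after priming (log2FC 1.75 ± 0.46, adjusted p = 0.00957), and without replicate 1 of the LPS-primed group the call was lost (log2FC 1.43, adjusted p = 0.0518). It was 12.1-fold lower in LPS-tolerant than in singly stimulated BMDMs (log2FC -3.60 ± 0.49, adjusted p = 2.66e-05). Unlike Tnf, it fell after the second dose (log2FC -2.33 ± 0.49 against LPS-primed BMDMs, adjusted p = 0.0084), a call that was lost without replicate 3 of the LPS-tolerant group (log2FC -2.17, adjusted p = 0.051). The second response minus the first was -5.35 ± 0.67 (adjusted p = 1.76e-05).

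The 250 bases upstream of the annotated starts of Tnf, Tnfsf9 and Tnfsf14 are shown because these genes rose together after the first dose. They are read from GRCm39 on the strand of each gene, at chr17:35420984-35421233 for Tnf, chr17:57412048-57412297 for Tnfsf9, and chr17:57501178-57501427 for Tnfsf14. Capitals mark matches to any of 6 motifs: the NF-κB consensus, AP-1 (TGANTCA), CRE (TGACGTCA), ISRE (GAAA, any 2 bases, GAAA) and the GC box (GGGCGG), on both strands, and the TATA box (TATAAA) on the gene strand.
Tnf: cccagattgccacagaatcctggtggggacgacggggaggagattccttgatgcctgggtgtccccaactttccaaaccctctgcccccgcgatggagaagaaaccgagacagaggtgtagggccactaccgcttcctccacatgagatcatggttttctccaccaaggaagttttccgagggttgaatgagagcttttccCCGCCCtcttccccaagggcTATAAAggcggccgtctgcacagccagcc
Tnfsf9: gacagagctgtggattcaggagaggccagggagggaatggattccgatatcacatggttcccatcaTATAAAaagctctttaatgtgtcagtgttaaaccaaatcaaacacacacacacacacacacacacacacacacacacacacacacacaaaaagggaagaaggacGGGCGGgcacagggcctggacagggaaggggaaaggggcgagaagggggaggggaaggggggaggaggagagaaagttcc
Tnfsf14: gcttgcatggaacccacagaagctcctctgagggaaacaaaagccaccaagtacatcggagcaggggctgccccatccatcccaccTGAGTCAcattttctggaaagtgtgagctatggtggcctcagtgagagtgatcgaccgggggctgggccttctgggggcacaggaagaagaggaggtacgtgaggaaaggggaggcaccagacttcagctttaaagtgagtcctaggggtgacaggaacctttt
The window of Tnf held a TATA box 29 to 24 bases upstream of the start and a GC box, that of Tnfsf9 held a TATA box 184 to 179 bases upstream and a GC box, and that of Tnfsf14 held 1 AP-1 match 164 to 158 bases upstream. No window of Tnf, Tnfsf9 or Tnfsf14 held the NF-κB consensus, and bases further upstream were not searched. Over 21574 promoter windows of the same length, 8.01% held the TATA box, 36.4% the GC box, 6.14% AP-1, 4.24% the NF-κB consensus, 3.31% ISRE and 1.70% CRE. Among the 10938 windows of tested genes these shares were 4.13%, 50.4%, 4.74%, 4.43%, 3.09% and 2.16%, in the same order.

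Of the lymphotoxin genes beside Tnf, Lta (chr17:35422141-35424327, minus strand) encodes lymphotoxin alpha, and Ltb (chr17:35413382-35415296, plus strand) encodes the subunit that holds it at the membrane. Lta had 1, 0 and 0 counts in unstimulated BMDMs, 0 in all 3 LPS-primed samples, 6, 0 and 0 in LPS-tolerant BMDMs and 7, 11 and 5 after the single dose. The singly stimulated samples were the only group with a count in all 3, and the ratio to unstimulated BMDMs was 23.5 (exact 95% interval 3.81 to 967, counting error alone). Ltb had 11 counts in unstimulated, 9 in LPS-primed, 8 in LPS-tolerant and 3 in singly stimulated BMDMs, summed over 3 samples each. The ratio of singly stimulated to unstimulated BMDMs for Ltb was 0.278 (0.050 to 1.05), so no difference was detectable at this depth. An opposite-strand long noncoding gene overlaps 22.9% of the exon bases of Ltb, and the strand option of the counting was not given in the sources used here. Against the 29764 counts of Tnf over the 3 singly stimulated samples, its neighbours Lta and Ltb had 23 and 3.

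Tnfsf15 encodes TL1A, the ligand of the receptor DR3 (Tnfrsf25), and lies at chr4:63642840-63663442 on the minus strand. It had 0 to 15 counts in every sample. Summed over 3 samples, 4 counts were found in unstimulated and 23 in singly stimulated BMDMs, a ratio of 5.87 (2.01 to 23.4, counting error alone), and 15 of the 23 came from replicate 2. LPS-tolerant BMDMs had 13 counts, of which 11 came from replicate 1. No test was made for Lta, Ltb or Tnfsf15.

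Among the ligands of cell death and survival, Tnfsf10 encodes TRAIL, which can trigger apoptosis through the receptor encoded by Tnfrsf10b, and lies at chr3:27371033-27396576 on the plus strand. Its counts were 10, 4 and 16 in unstimulated BMDMs, 6, 3 and 8 in LPS-primed BMDMs, 0, 11 and 3 in LPS-tolerant BMDMs and 10, 29 and 8 after the single dose. All of these groups overlapped with their neighbours, and no LPS comparison called Tnfsf10 (log2FC 0.57 ± 0.79 after the first dose, adjusted p = 0.569, and -1.55 ± 0.86 for LPS-tolerant against singly stimulated BMDMs, adjusted p = 0.179).

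Tnfsf13b encodes BAFF, a survival factor of B cells that myeloid cells produce, and lies at chr8:10056467-10089072 on the plus strand. Tnfsf13b had 50.7, 68.0 and 64.5 normalized counts in unstimulated BMDMs, 31.8, 36.5 and 29.1 in LPS-primed BMDMs, 35.5, 22.5 and 34.0 in LPS-tolerant BMDMs and 52.5, 14.5 and 31.5 after the single dose. Every unstimulated sample lay above every LPS-primed one, while replicate 1 of the single dose lay within the unstimulated range. After the first dose the log2FC was -0.92 ± 0.51 (adjusted p = 0.139). With the replicate number as a block, the log2FC was -1.08 (adjusted p = 0.0299) and the call was made, as it was without replicate 1 of the single dose (log2FC -1.42, adjusted p = 0.0433). After priming the log2FC was -0.91 ± 0.51 (adjusted p = 0.214). LPS-tolerant and singly stimulated BMDMs differed by -0.08 ± 0.52 (95% interval -1.11 to 0.95, adjusted p = 0.926).

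Tnfsf12, the gene of TWEAK, lies at chr11:69577076-69586928 on the minus strand and shares 52.4% of its exon bases with Tnfsfm13, a read-through gene on the same strand that has 0 counts in all samples, so its own count is uncertain. Tnfsf12 had 172, 143 and 70.0 normalized counts in unstimulated BMDMs, 59.3, 49.0 and 24.4 in LPS-primed BMDMs, 70.9, 44.9 and 46.3 in LPS-tolerant BMDMs and 112, 31.1 and 39.4 after the single dose. The unstimulated samples lay above the LPS-primed ones and overlapped the singly stimulated ones. After priming the log2FC was -1.54 ± 0.58 (adjusted p = 0.0618), and with the replicate block it was called lower (log2FC -1.55, adjusted p = 0.00127). After the first dose the log2FC was -1.10 ± 0.57 (adjusted p = 0.117), and the block gave -1.21 (adjusted p = 0.00369). The second response minus the first was 1.38 ± 0.82 (adjusted p = 0.254), and the block gave 1.55 (adjusted p = 0.0171). Leaving out replicate 1 of the single dose gave -1.86 after the first dose (adjusted p = 0.0177), and leaving out replicate 3 of the unstimulated group gave -1.82 after priming (adjusted p = 0.0445). In LPS-tolerant against singly stimulated BMDMs the log2FC was -0.16 ± 0.58 (adjusted p = 0.866).

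The study asked whether carboplatin alters LPS priming and LPS tolerance. In LPS-primed BMDMs, carboplatin changed none of the 7 tested ligands by edgeR's test (0 at an unadjusted p under 0.05, and 0 called by DESeq2 and by limma-voom), in a comparison that called 0.0973% of tested genes higher and 1.11% lower. In LPS-tolerant BMDMs, Tnfsf4 rose in the presence of carboplatin and no tested ligand fell by edgeR, DESeq2 or limma-voom, against 0.239% of tested genes higher and 1.42% lower (14.4% of called genes higher, 25.5% by library size alone). The difference between the 2 carboplatin effects called no gene of 11305 by edgeR (0.0% in both directions, 131 genes at an unadjusted p under 0.05) and none by DESeq2 or limma-voom.

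Tnf had 348, 499 and 414 normalized counts in LPS-primed BMDMs treated with carboplatin, against 285, 353 and 267 without it, and the groups overlapped by 1 sample, as they did in TPM (96.5, 148 and 123 against 76.1, 101.8 and 80.0). The log2FC was 0.48 ± 0.29 (95% interval -0.08 to 1.04, adjusted p = 0.842). In LPS-tolerant BMDMs, Tnf had 2961, 2677 and 2494 normalized counts with carboplatin, against 2555, 2038 and 2258 without it. Tnf was higher with carboplatin in 3 of 3 replicates in both settings, but the groups overlapped again in normalized counts and the log2FC was 0.25 ± 0.28 (95% interval -0.30 to 0.79, adjusted p = 1). The upper bound corresponds to a 1.73-fold rise. In TPM the LPS-tolerant samples did not overlap, with 751, 769 and 716 with carboplatin and 620, 565 and 611 without it, so the overlap depends on the scaling, and no test was made on TPM. With carboplatin, Tnf in LPS-tolerant BMDMs reached 28.5% of the single-dose mean.

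Tnfsf4 had 22, 7 and 11 counts in LPS-tolerant BMDMs treated with carboplatin, against 1, 2 and 0 without it. All 3 treated samples lay above the untreated ones. The ratio was 14.3 (exact 95% interval 4.54 to 72.1 for counting error alone), and the difference was called at the limit of 0.25 (log2FC 3.75 ± 0.95, adjusted p = 0.12, 0.0487 with the replicate block). The call rested on few counts. It was lost without replicate 1 of the carboplatin group (log2FC 3.01, adjusted p = 0.513), without replicate 2 (4.46, 0.348) or replicate 3 (3.22, 0.389) of the LPS-tolerant group and in limma-voom (3.38, 0.308). In a fit of these 2 groups alone the gene did not pass the filter and was not tested. In LPS-primed BMDMs the counts were 1, 4 and 6 with carboplatin and 0, 0 and 4 without it (log2FC 1.42 ± 1.05, adjusted p = 0.922), and the 2 carboplatin effects did not differ by the test (log2FC 2.33 ± 1.59, adjusted p = 1). The mean level of Tnfsf4 in LPS-tolerant BMDMs was 1.29% of the single-dose mean without carboplatin and 20.2% with it.

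**Figure D4:**
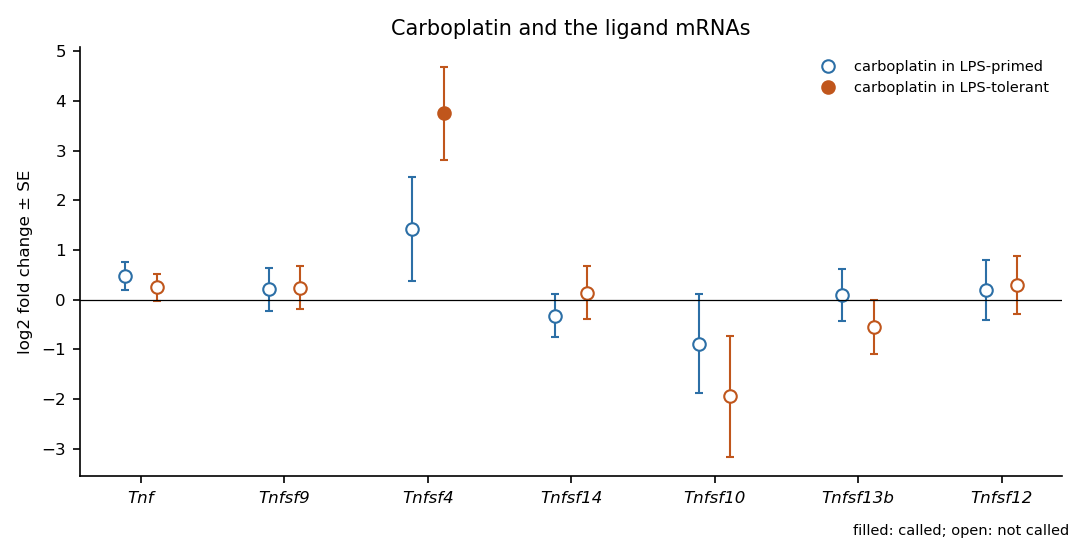
Log2FC ± SE of the 7 tested ligand mRNAs with carboplatin against without it, in LPS-primed and in LPS-tolerant BMDMs (3 samples a group), with filled points for called genes. Only Tnfsf4 in LPS-tolerant BMDMs is called (log2FC 3.75), and Tnf lies at 0.48 and 0.25.

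Tnfsf9 had 443, 314 and 361 normalized counts with carboplatin in LPS-primed BMDMs and 471, 406 and 457 with it in LPS-tolerant BMDMs, and both groups overlapped with their controls (log2FC 0.21 ± 0.44 and 0.24 ± 0.43, adjusted p = 0.989 and 1). Tnfsf14 had 70.2, 35.7 and 28.2 normalized counts in the former and 6.56, 7.97 and 20.2 in the latter (log2FC -0.32 ± 0.44 and 0.14 ± 0.54, adjusted p = 0.987 and 1). Tnfsf10 had 9 counts with carboplatin and 17 without it in LPS-primed BMDMs, and 3 against 14 in LPS-tolerant BMDMs (log2FC -0.89 ± 0.99 and -1.95 ± 1.21, adjusted p = 0.98 and 0.91). These ligands therefore showed no called change. Tnfsf13b had log2FC values of 0.09 ± 0.52 and -0.54 ± 0.54, and Tnfsf12 of 0.20 ± 0.60 and 0.30 ± 0.58. Of the genes under the filter, Lta had 10 counts with carboplatin in LPS-primed BMDMs against 0 in the controls, but 9 of the 10 came from replicate 1. The exact 95% interval of this ratio had a lower bound of 2.31, for counting error alone. Ltb had 17 counts against 9 in LPS-primed BMDMs, a ratio of 1.95 (0.822 to 4.97), and 18 against 8 in LPS-tolerant BMDMs, a ratio of 2.41 (0.996 to 6.40). Tnfsf15 had 12 counts against 5 and 5 against 13 in these settings.

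LPS-tolerant BMDMs given carboplatin were also compared with singly stimulated BMDMs, to see how far they lay from a first response. Tnf, Tnfsf9 and Tnfsf14 were lower, in a comparison with 17.4% of tested genes higher and 19.7% lower. None of the 7 was called higher by edgeR, DESeq2 or limma-voom. Tnfsf4 was called lower with the limit given above. Tnfsf10, which was not called without carboplatin, was also called lower. It had passed the filter only with the singly stimulated samples counted, so its call is no support for a count of ligands. Tnf was 3.51-fold lower (log2FC -1.81 ± 0.29, adjusted p = 9.64e-05) and Tnfsf9 17.1-fold lower (log2FC -4.10 ± 0.48, adjusted p = 4.82e-06, with -3.09 without replicate 1 of the single dose). Tnfsf14 stood at -3.46 ± 0.49 (adjusted p = 3.23e-05), and at -4.16 without replicate 3 of the carboplatin group. The ratio for Tnfsf4 was 0.196 (0.137 to 0.275, adjusted p = 0.00659 by edgeR with no filter), with log2FC -2.32 and, without replicate 1 of the carboplatin group, -3.07. Tnfsf10 had 0, 1 and 2 counts against 10, 29 and 8, and the call (log2FC -3.50 ± 1.08, adjusted p = 0.0171) was lost without replicate 1 of the carboplatin group (-3.06, adjusted p = 0.057) or replicate 2 of the single dose (-3.04, adjusted p = 0.0709), and was -4.22 (adjusted p = 0.0381) without replicate 3 of the carboplatin group. Of the genes under the filter, Ltb had 18 counts against 3, a ratio of 7.25 (2.12 to 38.4, counting error alone). Lta had 6 against 23 (ratio 0.315, 0.105 to 0.796) and Tnfsf15 had 5 against 23 (ratio 0.263, 0.078 to 0.706). This comparison and that of LPS-tolerant BMDMs share the singly stimulated samples.

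The receptors of the 10 ligands differed among themselves. Of 14 receptor genes, 11 were tested, of which 4 rose and 0 fell after the first dose by edgeR, against 24.3% and 26.9% of all tested genes (median log2FC 0.13, against -0.09 over all tested genes), and LPS-tolerant BMDMs had 3 above and 4 below their single-dose level, against 16.2% and 18.3% of all tested genes (median -0.58, against 0.0026). After priming 4 receptors rose and 1 fell, against 12.1% and 13.1% of all tested genes. In the second minus first response 0 were higher and 3 lower by edgeR, DESeq2 and limma-voom, against 10.5% and 13.3%, and the block added Tnfrsf14 (-1.27, adjusted p = 0.0013). After the second dose edgeR and limma-voom called none (2 of 11 at an unadjusted p under 0.05) and DESeq2 called 2 higher, while the replicate block called Tnfrsf12a (log2FC 2.15, adjusted p = 0.00187) and Tnfrsf1b (0.63, 0.0151) higher and Tnfrsf14 (-1.09, 0.000853) lower. The block called 2034 of all 11305 tested genes in that comparison. By library size alone 1 receptor fell after the first dose, among 4636 tested genes that fell under that scaling. Tnfrsf9, the receptor of the Tnfsf9 ligand, had 0.909 to 2.46 normalized counts in unstimulated BMDMs, 211 to 277 after the single dose and 6.91 to 69.6 in LPS-tolerant BMDMs, with no overlap between these groups. It rose after the first dose (log2FC 6.96 ± 1.37, adjusted p = 0.000443) and was lower in LPS-tolerant BMDMs (-3.13 ± 1.01, adjusted p = 0.023). Tnfrsf1b, the TNF receptor of leukocytes, rose from 1618 ± 338 to 11008 ± 2472 normalized counts after the first dose (log2FC 2.77 ± 0.21, adjusted p = 1.44e-08) and was lower in LPS-tolerant BMDMs (-0.79 ± 0.19, adjusted p = 0.00433). Tnfrsf1a, the broadly expressed TNF receptor with a death domain, changed less (0.80 ± 0.13, adjusted p = 0.000106, and -0.53 ± 0.13, adjusted p = 0.00544).

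**Figure D5:**
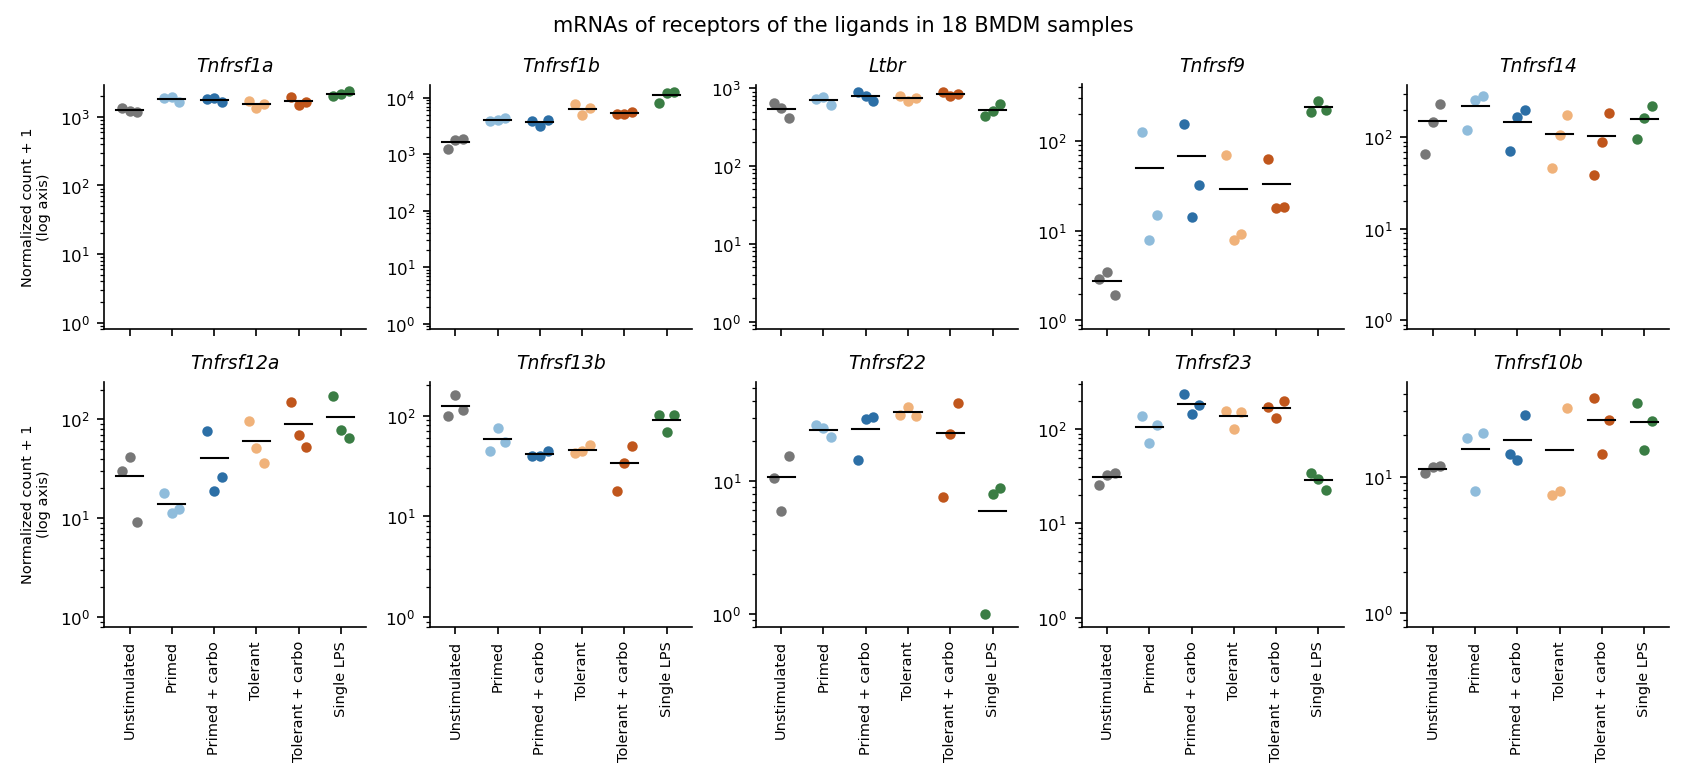
Normalized count plus 1 (log axis) of 10 receptor mRNAs of the ligands in each of the 18 samples by group, with replicates 1 to 3 from left to right and a bar at the group mean. Tnfrsf9 is highest after the single dose in all 3 samples, and Tnfrsf22 and Tnfrsf23 are lower there than in LPS-tolerant BMDMs.

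Tnfrsf22 and Tnfrsf23, decoy receptors of TRAIL in the mouse, went the other way and were higher in LPS-tolerant than in singly stimulated BMDMs (log2FC 2.58 ± 0.66, adjusted p = 0.0059, and 2.28 ± 0.30, adjusted p = 1.65e-05). Priming alone had raised Tnfrsf23 (1.80 ± 0.29, adjusted p = 0.000191), while Tnfrsf22 was not called there (1.27 ± 0.63, adjusted p = 0.158). Between LPS-tolerant and LPS-primed BMDMs neither was called (Tnfrsf22 0.45 ± 0.58, adjusted p = 0.723, and Tnfrsf23 0.36 ± 0.27, adjusted p = 0.503). Tnfrsf10b, the signalling TRAIL receptor, did not pass the test between LPS-tolerant and singly stimulated BMDMs (-0.69 ± 0.59, adjusted p = 0.398) or after the first dose (1.19 ± 0.60, adjusted p = 0.108), where the block called it higher (1.14, adjusted p = 0.049). Tnfrsf12a, the receptor of TWEAK, rose after the first dose (1.99 ± 0.61, adjusted p = 0.0122). Tnfrsf13b, a BAFF receptor known as TACI, was lower after priming (-1.12 ± 0.31, adjusted p = 0.0128) and lower in LPS-tolerant than in singly stimulated BMDMs (-0.98 ± 0.32, adjusted p = 0.0234). The B-cell marker Ighm was also lower in both comparisons, at 255.2 to 1542.4 normalized counts in unstimulated against 0.0 to 2.1 in LPS-primed BMDMs, and 69.2 to 271.1 in singly stimulated against 3.8 to 5.1 in LPS-tolerant BMDMs, and its part was not tested. Ltbr, which binds LIGHT and membrane lymphotoxin, was slightly higher in LPS-tolerant BMDMs (0.49 ± 0.17, adjusted p = 0.0347). Tnfrsf14 was not called there (-0.53 ± 0.58, adjusted p = 0.514), and with the replicate block it was lower there (-0.63, adjusted p = 0.0136) and higher after priming (0.64, adjusted p = 0.0116). Tnfrsf4, the receptor of OX40 ligand, had 1 to 19 counts per sample and no called change. Tnfrsf13c and Tnfrsf25 were at 0 in all samples, and Tnfrsf17 had 1 to 5 counts per unstimulated sample and at most 2 elsewhere. No receptor was called in either carboplatin comparison by edgeR or limma-voom, where 2 receptors in LPS-primed and 0 in LPS-tolerant BMDMs had an unadjusted p under 0.05, while DESeq2 called 1 in LPS-primed BMDMs. With the block, Tnfrsf12a (1.47, adjusted p = 0.103) and Tnfrsf23 (0.83, adjusted p = 0.0586) were called higher and Tnfrsf14 (-0.63, adjusted p = 0.115) lower with carboplatin in LPS-primed BMDMs. The block called 890 of all 11305 tested genes in that comparison.

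Genes that carry or restrain the signal behind the receptors were tested as a list of 29, of which 15 rose and 3 fell after the first dose, against 24.3% and 26.9% of all tested genes. By library size alone 12 rose and 8 fell, beside 1847 and 4636 of all tested genes. With the block 16 rose and 6 fell, beside 7148 of 11305 tested genes called in either direction. After priming 8 rose and 1 fell, against 12.1% and 13.1%. With the block these were 14 and 1, beside 4367 of 11305 tested genes called in either direction. Against the single dose, 5 were higher and 13 lower in LPS-tolerant BMDMs, beside 16.2% and 18.3% of all tested genes (median log2FC -0.35, against 0.0026 over all tested genes). Tnfaip3, which encodes the inhibitory ubiquitin-editing protein A20, had 126 ± 15.9 normalized counts in unstimulated, 16339 ± 2005 in singly stimulated and 1838 ± 118 in LPS-tolerant BMDMs, and was lower in the last (-3.15 ± 0.16, adjusted p = 4.56e-10). Cflar, an inhibitor of death receptor signalling, was also lower there (-2.14 ± 0.50, adjusted p = 0.00317). Of 12 proteins that bind or regulate AU-rich mRNAs, 1 was higher and 6 were lower in LPS-tolerant BMDMs, read against the same 16.2% and 18.3% (median -0.70). Zfp36, which encodes tristetraprolin, had 8298 ± 1745 normalized counts after the single dose and 630 ± 117 in LPS-tolerant BMDMs (-3.72 ± 0.21, adjusted p = 1.65e-09), near its level of 759 ± 131 in unstimulated BMDMs. Dusp1, a phosphatase that restrains p38 signalling, was lower by 1.88 ± 0.31 (log2FC -1.88, adjusted p = 0.000174). Of 8 tested genes that release or process membrane ligands, 1 was higher and 3 were lower in LPS-tolerant BMDMs, again beside 16.2% and 18.3% (median 0.07). With the block 3 were higher and 3 lower, beside 5380 of 11305 tested genes called in either direction. Among the lower genes were Rhbdf1 (-4.62 ± 0.73, adjusted p = 0.000115) and the proprotein convertase gene Furin (-1.02 ± 0.16, adjusted p = 0.000125). In these 3 lists, edgeR, DESeq2 and limma-voom called 0 genes in either carboplatin comparison, with 1 signalling gene at an unadjusted p under 0.05 in LPS-primed BMDMs, while the block called 3 signalling genes and 2 AU-rich regulators higher there, and 1 signalling and 1 processing gene higher in LPS-tolerant BMDMs. Of all 11305 tested genes, the block called 890 in LPS-primed and 784 in LPS-tolerant BMDMs, in either direction.

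The tested genes whose log2 levels followed each ligand most closely over the 18 samples are given as a description, since the samples of a group share their treatment. For Tnf these were Itga5 (Pearson r = 0.985), Map3k6 (0.978) and Sqstm1 (0.969), and for Tnfsf9 they were Rnf19b (0.972), Junb (0.968) and Stx11 (0.968). For Tnfsf14 they were Tha1 (0.937), Il15ra (0.916) and Pim1 (0.905), and for Tnfsf4 Dpf2 (0.920), Ripk2 (0.911) and Rbm22 (0.896). Tnf and Tnfsf9 correlated with each other at 0.866, whereas Tnf and Tnfsf14 reached 0.220. The genes most like Tnfsf12 were Cyb561d2 (0.936), Gps2 (0.914) and Phkg2 (0.908), those most like Tnfsf13b were Ext2 (0.839), Grik5 (0.838) and Acbd6 (0.838), and those most like Tnfsf10 were Tgtp2 (0.871), Gvin1 (0.853) and LOC115490200 (0.849).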

How the data were processed

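RNA-Seq libraries of 18 BMDM samples were made by the authors with a stranded mRNA kit and sequenced as paired ends, and the deposited values are raw counts of read pairs per gene, which the authors obtained by alignment to GRCm39 with HISAT2 and counting with HTSeq-count. The annotation, versions and strand option were not given in the sources used here. Between 41.5% and 46.9% of the pairs in each table were not assigned to a gene and stayed out of library sizes. Groups were taken from the sample labels, doses and most times from the labels and the study's methods, and the time of the single dose from a drawn treatment scheme.

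Counts were tested with edgeR 4.0.16 under R 4.3.3, with its quasi-likelihood test, TMM scaling, a filter on low counts (minimum count 10, minimum total 15), a prior count of 0.125 and a mean for each of the 6 groups. The SE of a log2FC was derived from its F statistic, and 95% intervals from the SE. P values were adjusted over 11305 genes (Benjamini-Hochberg). The study's fold limit of 2 on the log2 scale was an alternative. Ratios of low counts were given exact binomial intervals, which cover counting error only. TPM were computed from exon lengths of GENCODE vM39 on GRCm39, which also gave positions, promoters and untranslated regions, and 97.3% of the tested symbols had an entry. No pair of replicates was as alike as sampling noise allows. That replicates came from separate animals is not stated, so p values measure the spread between these samples.

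After removal of group means, same-numbered samples correlated at 0.183 to 0.574 in all comparisons of 2 groups (21 of 21 above 0.1), so the replicate numbers in the labels were taken to pair them. For the second response minus the first, 17 of 18 correlations exceeded 0.1. The main fit left this pairing out, and the replicate block is the alternative that uses it. With the block, 7148 rather than 5789 genes were called after the first dose, and 890 rather than 136 with carboplatin in LPS-primed BMDMs. Tnfsf12 and Tnfsf13b were then called lower after the first dose.

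All 10 ligands and all 14 receptors are named. From the other lists, the 2 called genes with the largest change between LPS-tolerant and singly stimulated BMDMs are named, and in the carboplatin comparisons none was called. The members and lists were chosen with earlier results of these data known. The edgeR step was tested on simulated counts. Alternatives were RLE or library size scaling, no filter or a stricter filter, DESeq2 1.42.0, limma-voom (limma 3.58.1), a fit of only the groups compared, a replicate block, the fold limit and leaving out each sample. Some marker genes and a promoter are not reported here.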

Additional observations from a re-analysis of the deposited data

Results flagged for a closer look

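The response to LPS differed between unprimed and primed BMDMs for Tnf, Tnfsf9 and Tnfsf14, by a test of the difference itself (edgeR, second response minus first). The second response includes the change of medium before the second dose. Tnf rose in both settings, and its second response was smaller by 3.82 on the log2 scale (log2FC -3.82). Tnfsf9 rose in unprimed BMDMs only by the test, with a difference of -7.08. Tnfsf14 rose in unprimed and fell in primed BMDMs, with a difference of -5.35. Tnfsf4 had a difference of -7.12, but it had passed the filter only through the singly stimulated group, and the difference was -3.55 and not called (adjusted p = 0.941) without replicate 3 of the LPS-primed group. The second response was the smaller in 3 of 3 replicates for Tnf, Tnfsf9 and Tnfsf14, and 13.3% of all tested genes were called lower in this contrast.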

How the results depend on the processing

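Of the values of single ligands under alternatives, 849 kept their direction and side of the limit, 16 gained a call, 9 lost it, and 43 changed sign, none of them called. A minimum of 10 counts in every sample kept only Tnf, Tnfsf9 and Tnfsf12, so that 2 ligands were called higher after the first dose, 2 lower in LPS-tolerant BMDMs with or without carboplatin and in the second minus first response, 0 lower after the second dose and 0 higher with carboplatin in LPS-tolerant BMDMs. The last count was also 0 in limma-voom and in a fit of only the groups compared, where Tnfsf4 was not tested. After the first dose 2 ligands were lower by library size alone, in limma-voom and with the replicate block. After priming 1 was lower by DESeq2, library size alone, limma-voom, no filter, a fit of only the groups compared and the block, and only 1 was higher under the fold limit. With the block 1 ligand was higher in the second minus first response, and it changed no ligand call beyond those named in the report. The cause of these shifts was not tested, beyond the fewer genes or samples in a fit.

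Uncalled values changed sign in limma-voom for Tnfsf13b (0.16) and Tnfsf12 (0.12) between LPS-tolerant and singly stimulated BMDMs, Tnfsf4 after the second dose (0.20), Tnfsf13b (-0.17) and Tnfsf12 (-0.030) with carboplatin in LPS-primed BMDMs and Tnfsf10 in the difference of carboplatin effects (0.37), and with the block for Tnfsf13b (0.0056 in LPS-tolerant BMDMs, -0.039 with carboplatin in LPS-primed BMDMs).

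Leaving out each replicate gave 0 to 2 ligands lower after the first dose, 0 to 1 lower after priming, 0 to 1 lower after the second dose and 0 to 1 higher with carboplatin in LPS-tolerant BMDMs. The log2FC of Tnfsf4 after priming ran from -2.52 to 1.58. Between LPS-tolerant and singly stimulated BMDMs, Tnfsf13b ran from -0.46 to 0.42 and Tnfsf12 from -0.48 to 0.61. After the second dose the ranges were -1.09 to 3.19 for Tnfsf4, -1.73 to 0.14 for Tnfsf10, -0.20 to 0.099 for Tnfsf13b and -0.012 to 0.56 for Tnfsf12. With carboplatin in LPS-primed BMDMs they were -0.63 to 0.37 for Tnfsf13b, -0.78 to 0.0034 for Tnfsf14 and -0.65 to 0.55 for Tnfsf12, and in LPS-tolerant BMDMs -0.56 to 0.40 for Tnfsf14 and -0.24 to 0.62 for Tnfsf12. For the difference of carboplatin effects they were -1.24 to 3.04 for Tnfsf4, -0.11 to 0.17 for Tnfsf9, -1.78 to 1.15 for Tnfsf10, -1.31 to 0.086 for Tnfsf13b, -0.24 to 0.93 for Tnfsf14 and -0.44 to 0.95 for Tnfsf12. Tnfsf12 ran from -0.40 to 0.91 between LPS-tolerant BMDMs with carboplatin and the single dose.

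Scaling by library size alone moved the median log2FC of all genes from -0.09 to -0.43 after the first dose, from -0.02 to -0.26 after priming and from 0.06 to 0.30 in the second minus first response, and reversed no ligand. Lta, Ltb, Tnfsf15, Tnfsf10 and, outside the single dose, Tnfsf4 have too few counts for small differences to be seen at this depth.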

Other observations

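Among 8 further ligands of the TNF superfamily, only Tnfsf8, the gene of CD30 ligand, passed the filter on low counts. It had 25.7 ± 13.4 normalized counts in unstimulated BMDMs and 3.19 ± 2.82 in LPS-primed BMDMs (SD, n = 3), and was lower after priming (log2FC -2.98 ± 0.91, adjusted p = 0.0253 by edgeR), in a comparison with 12.1% of tested genes higher and 13.1% lower. The B-cell marker Ighm had 255.2 to 1542.4 normalized counts in unstimulated and 0.0 to 2.1 in LPS-primed BMDMs, and its part in the value of Tnfsf8 was not tested. The replicate block also called Tnfsf8 lower after the first dose (log2FC -1.27, adjusted p = 0.0351), in LPS-tolerant against singly stimulated BMDMs (log2FC -1.64, adjusted p = 0.0429) and with carboplatin in LPS-primed BMDMs (adjusted p = 0.154), where 0 counts stood against 9.

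Among 7 tested genes of other TNF receptor superfamily members, LPS-tolerant BMDMs had 2 above and 4 below the single-dose level, against 16.2% and 18.3% of all tested genes. Cd40, a receptor through which T cells activate macrophages, had 48.1 ± 11.6 normalized counts in unstimulated, 5113 ± 516 in singly stimulated and 96.7 ± 26.5 in LPS-tolerant BMDMs (log2FC -5.73 ± 0.27 for the last against the single dose, adjusted p = 1.83e-10). Tnfrsf26 went the other way, from 10.6 ± 4.80 after the single dose to 72.9 ± 23.9 in LPS-tolerant BMDMs (log2FC 2.79 ± 0.36, adjusted p = 1.43e-05). None of these 7 was called in either carboplatin comparison by edgeR, DESeq2 or limma-voom, and 0 had an unadjusted p under 0.05.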
